A study of Rattus norvegicus with 6 samples.

Results

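The genes described here are 10 cell adhesion genes measured in vascular smooth muscle (VSM) cells: Mcam, Alcam, Bcam, Vcam1, Icam1, Ncam1 and L1cam of the immunoglobulin (Ig) superfamily, and the integrin subunits Itga4, Itga9 and Itgb7. They were taken by gene symbol from the 14475 genes with counts, and 10 of 10 were found, each in 1 row. The cells came from soleus feed arteries (SFA), which supply the soleus muscle with blood, of male Fischer 344 rats that were young (4 months, n = 3 rats) or old (24 months, n = 3 rats). They carried no genetic change, were grown in serum-containing medium without further treatment, and gave 1 library of polyadenylated RNA per culture. The comparison asks which of these genes differ between old and young VSM cells, with young as the reference. The genes were chosen by symbol and family with the fold changes of this same comparison already known. Their values are therefore a description, given without a p-value for the single gene. Counts of calls among them, and whether a call held with a library left out, support nothing on their own.

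Ig-family adhesion molecules are single-pass surface proteins whose extracellular Ig domains bind the same molecule on a neighboring cell, a different Ig protein, a matrix protein or an integrin. Mcam is a surface marker of the mural cells of the vessel wall, that is, smooth muscle cells and pericytes. Vcam1 and Icam1 are induced by inflammatory cytokines through the transcription factor NF-kB and serve as counter-receptors for leukocyte integrins. An integrin is a pair of an alpha and a beta subunit. The Itga4 subunit pairs with Itgb1 or with Itgb7, the Itga9 subunit pairs with Itgb1, and both alpha subunits belong to a subfamily that binds Vcam1 and other ligands outside the collagen receptor group.

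Promoter sequences are shown for the Vcam1 ligand, for Icam1, and for the integrin subunits Itga4 and Itgb7, which stood on opposite sides of the young range in the old cultures. Each is the 250 bases before the RefSeq transcription start, printed 5′ to 3′ on the strand of the gene, from RefSeq on assembly GRCr8, which is not the assembly the reads were aligned to. Capitals mark matches on either strand to the NF-kB type motif GGNNNTTCC or to the E-box CANNTG, and no match of one overlapped a match of the other.
Vcam1 (GRCr8 chr2:206742784-206743033, minus strand): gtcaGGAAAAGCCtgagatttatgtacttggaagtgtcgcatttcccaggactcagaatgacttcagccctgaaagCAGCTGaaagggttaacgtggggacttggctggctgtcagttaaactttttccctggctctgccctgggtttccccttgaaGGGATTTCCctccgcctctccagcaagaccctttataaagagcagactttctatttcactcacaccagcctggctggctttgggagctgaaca
Icam1 (GRCr8 chr8:27829595-27829844, plus strand): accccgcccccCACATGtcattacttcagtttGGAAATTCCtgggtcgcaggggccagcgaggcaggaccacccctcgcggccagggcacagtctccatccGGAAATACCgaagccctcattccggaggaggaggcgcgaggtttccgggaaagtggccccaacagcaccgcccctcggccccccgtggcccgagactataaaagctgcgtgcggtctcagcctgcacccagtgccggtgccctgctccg
Itga4 (GRCr8 chr3:84569765-84570014, plus strand): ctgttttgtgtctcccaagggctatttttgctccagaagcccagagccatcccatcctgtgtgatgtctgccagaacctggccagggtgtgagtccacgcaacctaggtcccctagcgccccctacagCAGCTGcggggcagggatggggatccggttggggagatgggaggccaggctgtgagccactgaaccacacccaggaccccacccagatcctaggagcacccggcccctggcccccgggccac
Itgb7 (GRCr8 chr7:135239072-135239321, minus strand): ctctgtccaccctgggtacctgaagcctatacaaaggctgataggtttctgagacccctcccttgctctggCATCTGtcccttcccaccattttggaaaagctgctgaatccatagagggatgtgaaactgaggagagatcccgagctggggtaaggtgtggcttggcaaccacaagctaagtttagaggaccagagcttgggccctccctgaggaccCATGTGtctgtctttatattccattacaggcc
The NF-kB type motif had 2 matches in the Vcam1 window and 2 in the Icam1 window, and 0 in the windows of Itga4 and Itgb7. Of 33469 rat promoters, 15.4% held this motif, 65.5% held an E-box and 1.5% held a CArG box, the element bound by serum response factor. The E-box had 1 match each for Vcam1, Icam1 and Itga4 and 2 for Itgb7. Promoter sequences were matched for 7 of the 10 genes, and Alcam, Bcam and Itga9 had 0 matches to the NF-kB type motif, to the E-box and to the CArG box. A match is only a run of letters and says nothing of binding in these cells.

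Total counts per library ranged from 44235674 to 59700887. Values below are counts or CPM, which are counts scaled to library size after TMM normalization (trimmed mean of M values), and they are compared between libraries for 1 gene at a time because gene lengths were not used. Among low counts, those from 1 to 19, the even ones made up 68.7% to 71.1% per library. Each library total was also above the reads per sample stated in the Methods. Fragments were thus counted more than once, as when a read pair is counted as 2, and low counts are less precise than they look. Across genes, Spearman's rho between libraries of the same age was 0.973 to 0.991. The labelled cell type was checked with 8 smooth muscle markers, all of which had counts in each library. Their summed level was 11272 to 21195 CPM in the young cultures and 3467 to 5595 CPM in the old ones, and the old libraries were below the young libraries for 8 of 8. In bulk RNA, fewer cells of a type and less RNA per cell cannot be told apart. Young replicate 3 stood at the end of the young range for many of the genes below, and values without it are given where they matter.

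Of the 10 genes, 4 had old and young libraries that did not overlap, 3 of them lower and 1 higher in old VSM cells, against 29.2% of all genes with separate groups in either direction (14.7% lower, 14.5% higher). These were Mcam, Bcam and Itga4, which were lower, and Itgb7, which was higher. With edgeR (quasi-likelihood F test), 0 of the 10 genes reached both an adjusted p below 0.05 and a log2 fold change of 1 or more in size (background 0.00691% of all genes). Before adjustment, 4 of the 10 had a p under 0.05, 3 lower and 1 higher (background 22.6% in all, 11.5% lower and 11.2% higher). The DESeq2 Wald test, the test of the study, called 4 of the 10 (background 5.56%), namely 3 lower and 1 higher in old (background 3.31% and 2.25%). limma-voom called 0 of the 10 (background 0%). The median log2 fold change of the 10 genes was -0.35, compared with 0.02 over all genes.

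**Figure D1:**
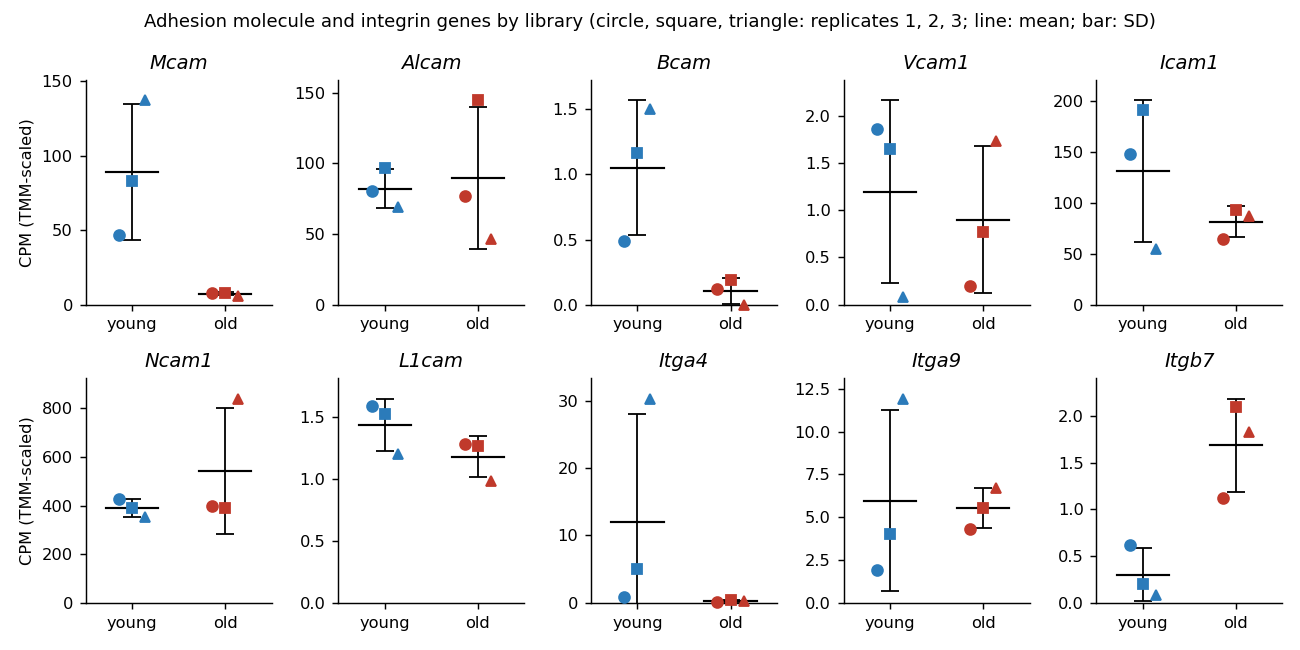
Level of each of the 10 genes in CPM (vertical axes, each starting at 0) in the 3 young (blue) and 3 old (red) libraries, with lines at the group means and bars of 1 SD, cut off at 0. The old libraries of Mcam, at 6.08 to 7.84 CPM, lie close together under the young ones, and those of Itgb7 lie above the young ones, whereas the young libraries of Itga4 range from 0.886 to 30.3 CPM.

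Among the Ig-family genes, Mcam (ENSRNOG00000007726), the mural cell adhesion molecule, had 46.7, 83.3 and 137 CPM in young replicates 1, 2 and 3 and 7.84, 7.64 and 6.08 CPM in old replicates 1, 2 and 3. The lowest young library was well above the highest old library, and the old libraries were close to each other, with a coefficient of variation of 13.4% against 51.2% in young. The mean was 89.2 ± 45.6 CPM (SD, n = 3) in young cultures, against 7.19 ± 0.962 CPM (SD, n = 3) in old ones. This gave a log2 fold change of -3.63 ± 0.41 (SE), a 12.4-fold lower level in old VSM cells. Leaving out each library in turn gave values from -3.94 to -3.18. DESeq2 called Mcam with all libraries and without any single one of them.

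Because smooth muscle markers were also lower in old VSM cells, Mcam was set against them within each library. Per 1000 counts of Myh11, the smooth muscle myosin heavy chain gene, there were 76.0, 71.7 and 85.1 Mcam counts in the young and 100.6, 33.4 and 63.8 in the old libraries, and the groups overlapped. Per 1000 counts of Acta2, the gene of smooth muscle α-actin, there were 9.40, 10.99 and 13.2 Mcam counts in the young and 3.56, 6.78 and 4.28 in the old libraries, and here each old library was below each young one. Relative to Myh11 the libraries thus did not separate by age, while relative to Acta2 they did. Myh11 had the largest fall of the 8 smooth muscle markers (log2 fold change -3.08, against -2.27 for Acta2 and a median of -2.21). Ratios of Mcam to the other smooth muscle markers were not taken.

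**Figure D2:**
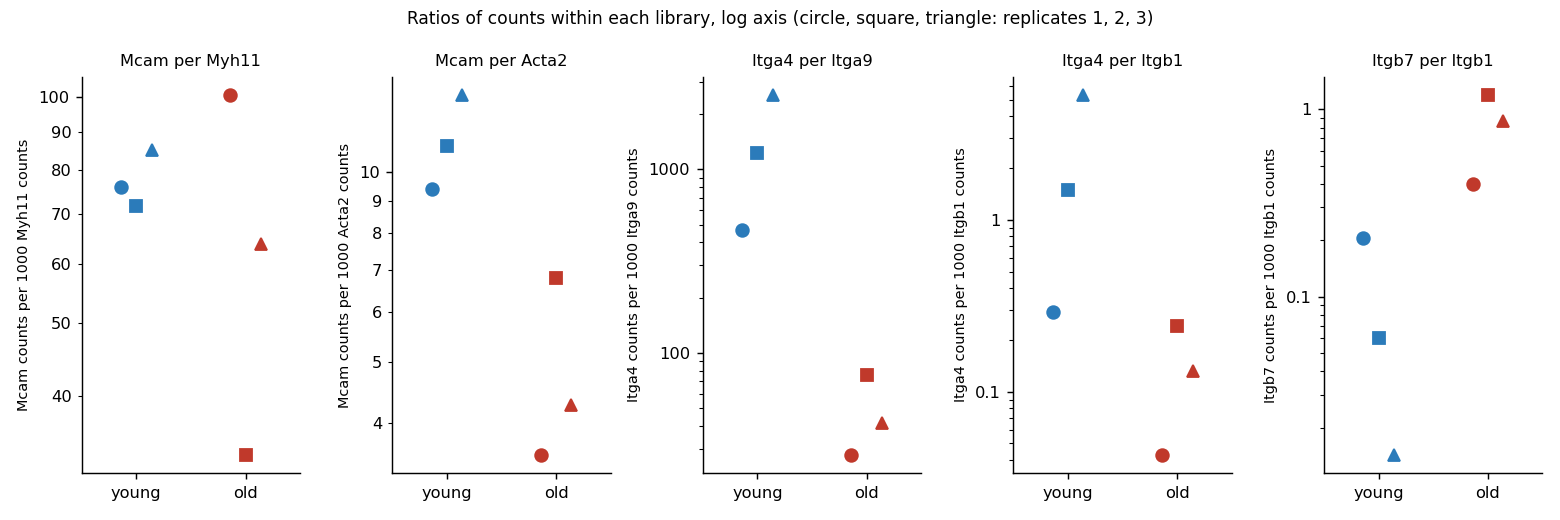
Counts of a gene per 1000 counts of another gene in the same library (vertical log axes) for 5 pairs of genes, with young libraries in blue and old libraries in red. The groups overlap for Mcam per Myh11, between 33.4 and 100.6, and are separate for the other 4 pairs.

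Bcam (ENSRNOG00000029399), a receptor for laminins that contain the α5 chain, was near the lower end of detection. It had 22, 70 and 74 counts in the young cultures and 6, 10 and 0 counts in the old ones. All old libraries were below all young libraries. The 0 in old replicate 3 allows a level of up to 0.0560 CPM (3 counts, counting error only), and a higher one if a read pair was counted as 2. The mean was 1.05 ± 0.518 CPM (SD, n = 3) in young cultures, against 0.104 ± 0.0972 CPM (SD, n = 3) in old ones, and the log2 fold change was -3.32 ± 0.93 (SE). It was -4.11 without old replicate 2, -2.73 without old replicate 3 and -2.97 without young replicate 3. DESeq2 no longer called Bcam when young replicate 3, its highest library, or young replicate 2 was left out. Lama5, which encodes that laminin chain, had 16.1, 42.3 and 32.4 CPM in the young cultures and 3.62, 2.87 and 4.93 CPM in the old ones. The log2 fold change of Lama5 was -2.99 ± 0.40 (SE, edgeR adjusted p = 0.0531). Its groups were separate too, so the laminin chain and its receptor were both lower in each old library than in any young library.

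Vcam1 (ENSRNOG00000014333), the Ig-family ligand of the Itga4 and Itga9 subunits, had 84, 99 and 4 counts in the young cultures and 10, 40 and 93 counts in the old ones. The groups overlapped over nearly their whole range, from 0.0814 to 1.86 CPM in young and from 0.201 to 1.74 CPM in old. The lowest and highest young libraries differed by 22.9-fold, a spread reached by 0.326% of the 12257 genes with a mean of at least 1 CPM. The log2 fold change was -0.40 ± 1.08 (SE), and it ran from -1.29 without old replicate 3 to 0.066 without old replicate 1, so these libraries gave Vcam1 no direction.

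Icam1 (ENSRNOG00000020679), the counter-receptor of leukocyte beta 2 integrins, had 148, 191 and 55.0 CPM in the young cultures and 64.0, 93.2 and 86.8 CPM in the old ones. Young replicates 1 and 2 were above each old library and young replicate 3 was below each of them. The mean was 131 ± 69.5 CPM (SD, n = 3) in young cultures, against 81.3 ± 15.3 CPM (SD, n = 3) in old ones, and the log2 fold change was -0.69 ± 0.43 (SE). Without young replicate 3 it was -1.06, and DESeq2 then called Icam1 although it did not with all libraries. Vcam1 and Icam1 had their lowest level in the same library, young replicate 3. Over the 6 libraries their profiles, as log2(CPM + 0.5) around the mean of each gene, differed by a root mean square of 0.45, the second smallest of the 45 pairs among the 10 genes after Alcam and L1cam (0.43). The added 0.5 CPM narrows genes at low levels such as Vcam1 and L1cam, and the order without it was not computed. In CPM the young libraries differed by 22.9-fold for Vcam1 but by 3.47-fold for Icam1.

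**Figure D3:**
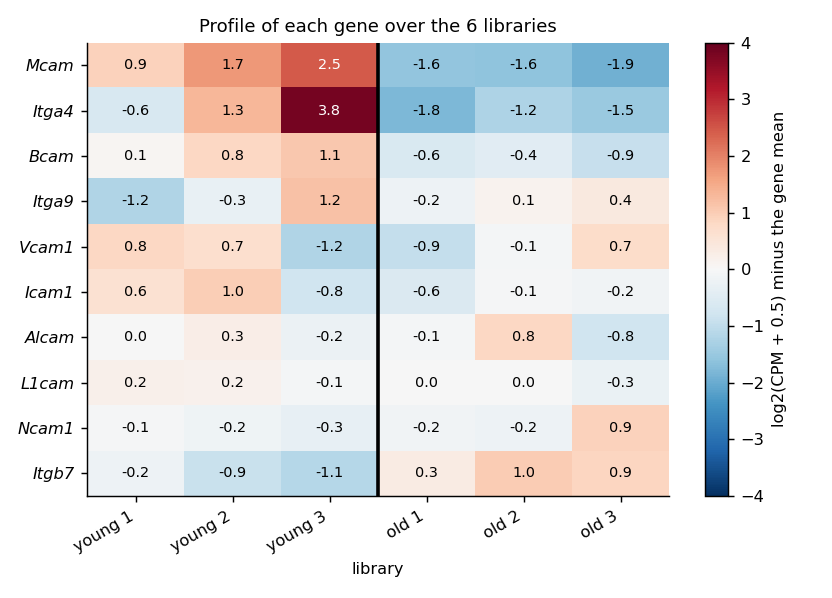
Level of each gene in each library as log2(CPM + 0.5) minus the mean of that gene over the 6 libraries (color and printed value), young libraries left of the black line. Mcam, Itga4 and Bcam are higher on the young side, Itgb7 on the old side, and young replicate 3 holds the highest Itga4 and Itga9 and the lowest Vcam1, Icam1 and Itgb7.

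Ncam1 (ENSRNOG00000031890), a neural and muscle adhesion molecule that binds itself on adjoining cells, had 426, 390 and 353 CPM in the young cultures and 398, 389 and 840 CPM in the old ones. Old replicate 3 alone was above the young range, and old replicates 1 and 2 were inside it. The log2 fold change was 0.48 ± 0.32 (SE) with all libraries and 0.014 without old replicate 3. Schwann cells also express Ncam1. Of 8 Schwann cell markers 3 were measured, summing to 13.5 to 75.5 CPM in the young and to 82.2 CPM in old replicate 3, within the old range of 54.9 to 86.4 CPM. The defining gene Sox10 was not found by symbol among the genes with counts, from which low-count genes had been removed. The part of such cells in the Ncam1 value was not tested.

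Alcam (ENSRNOG00000001989), which binds itself and the lymphocyte receptor Cd6, had 80.6, 96.8 and 68.9 CPM in the young cultures and 76.8, 145 and 46.5 CPM in the old ones. The old libraries held both the highest and the lowest value of the 6, and the log2 fold change was 0.12 ± 0.40 (SE). It was -0.42 without old replicate 2 and 0.43 without old replicate 3. L1cam (ENSRNOG00000061230), a neural adhesion molecule related to Nrcam, varied least of the 10 over the 6 libraries. It had 72, 92 and 59 counts in the young cultures and 64, 66 and 53 counts in the old ones, that is 1.44 ± 0.211 and 1.18 ± 0.167 CPM (SD, n = 3 each), with a log2 fold change of -0.29 ± 0.26 (SE).

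Of the integrin subunits, Itga4 (ENSRNOG00000004861) had 0.886, 4.99 and 30.3 CPM in the young cultures and 0.121, 0.423 and 0.280 CPM in the old ones. Each old library was below each young library, but the lowest young library, with 40 counts, was close to the old range, whose highest library had 22 counts. The young libraries differed by up to 34.2-fold, as widely as 0.228% of genes with a mean of at least 1 CPM, and young replicate 3 carried most of the young mean of 12.1 ± 15.9 CPM (SD, n = 3). The log2 fold change was -5.44 ± 1.38 (SE) with all libraries and -3.41 without young replicate 3. DESeq2 called Itga4 without any single library as well. Notch3, a receptor of pericytes and smooth muscle cells, also had its highest level in young replicate 3. It had 3.48, 11.2 and 81.6 CPM in the young cultures and 1.49, 1.08 and 10.95 CPM in the old ones. Notch3 was 1 of 4 measured pericyte markers, of which 3 were lower and 1 higher in old VSM cells. Summed, the pericyte markers had 904, 1091 and 1373 CPM in the young libraries and 667, 1081 and 1520 CPM in the old ones. That sum was thus highest in old replicate 3, where Itga4 was at 0.280 CPM. The summed skeletal muscle markers, 5 of 14 measured, were 212, 270 and 383 CPM in young replicates 1, 2 and 3. In the old libraries the sum of the skeletal muscle markers was 137 to 153 CPM. It was carried by Chrng and Acta1 in the young libraries and by Chrng in the old ones, at 125, 104 and 107 CPM. There Acta1 had 17.5, 17.6 and 5.97 CPM and Tnnt3 had 10.6, 28.4 and 21.8 CPM. Of the 5 markers, 3 were lower and 2 higher in old VSM cells. Acta1 alone rose from young replicate 1 to 3 and had separate groups, with a log2 fold change of -3.51. Chrng, Actn2 and Tnnt3 had overlapping groups, at log2 fold changes of -0.10, -0.77 and 0.92. The sum therefore followed Acta1 and was not a shared shift of these markers. The myogenic factors Myod1, Myf5, Myog and Pax7 were not found by symbol among the genes with counts, from which low-count genes had been removed. A gene listed without its symbol would be missed as well. The part of other cells in the Itga4 value was not tested.

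Itga9 (ENSRNOG00000043167) had 1.91, 4.04 and 11.9 CPM in the young cultures and 4.34, 5.56 and 6.72 CPM in the old ones. The old libraries lay inside the young range, the young libraries differed by 6.26-fold, and again young replicate 3 was highest. The log2 fold change was -0.10 ± 0.63 (SE) with all libraries and 0.89 without young replicate 3. Set against each other within a library, there were 465, 1235 and 2541 Itga4 counts per 1000 Itga9 counts in the young libraries and 27.8, 76.1 and 41.7 in the old libraries. The balance of the alpha subunits that bind Vcam1 therefore lay further toward Itga9 in each old library than in any young library.

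Itgb7 (ENSRNOG00000012208), the alternative beta partner of Itga4 on lymphocytes, had 28, 12 and 4 counts in the young cultures and 56, 109 and 98 counts in the old ones. Each old library was above each young library. The mean was 0.300 ± 0.283 CPM (SD, n = 3) in young cultures, against 1.68 ± 0.502 CPM (SD, n = 3) in old ones, and the log2 fold change was 2.50 ± 0.70 (SE), from 2.06 without young replicate 3 to 3.54 without young replicate 1. DESeq2 no longer called Itgb7 when young replicate 2 or either of old replicates 2 and 3 was left out. Leukocyte markers, 3 of 10 measured (Cd68, Csf1r and Cd14), summed to 5.13 to 16.0 CPM in the young cultures and 10.4 to 16.8 CPM in the old ones. Ptprc and Cd3e were not found by symbol among the genes with counts, from which low-count genes had been removed. The part of leukocytes in the Itgb7 value was not tested.

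Itgb1, the common beta partner, had 3028, 3334 and 5700 CPM in the young cultures and 2816, 1759 and 2121 CPM in the old ones. The log2 fold change of Itgb1 was -0.85 ± 0.31 (SE, edgeR adjusted p = 0.188). Per 1000 Itgb1 counts there were 0.205, 0.0598 and 0.0143 Itgb7 counts in the young and 0.400, 1.19 and 0.862 in the old libraries. On the same scale there were 0.293, 1.50 and 5.32 Itga4 counts in the young and 0.0428, 0.241 and 0.132 in the old libraries. In both ratios the groups were separate, upward in old for Itgb7 and downward for Itga4. Within the young cultures the library with the most Itga4 counts had the fewest Itgb7 counts, whereas within the old cultures replicate 1 had the fewest and replicate 2 the most counts of both genes.

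**Figure D4:**
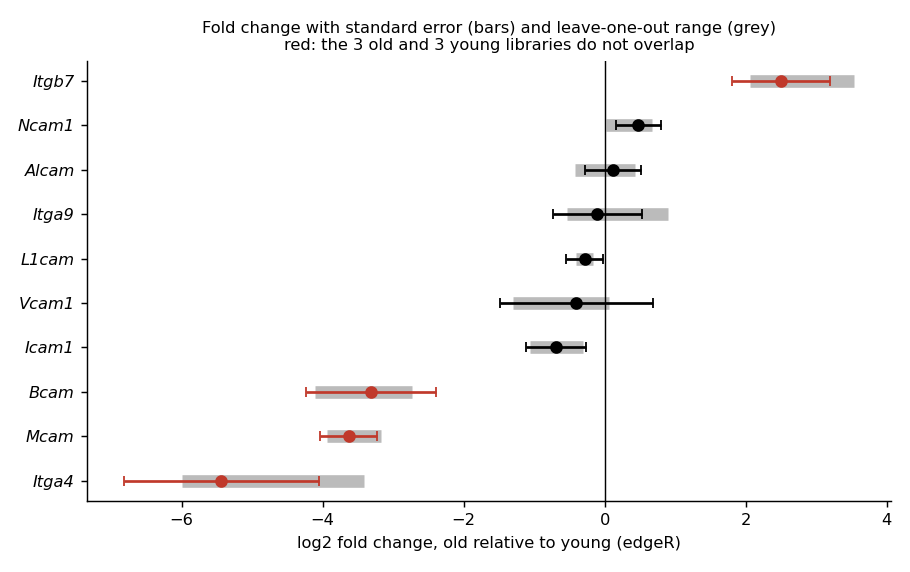
Log2 fold change of each gene in old relative to young VSM cells (horizontal axis) with bars of 1 standard error, over the range of the fits that left out 1 library (grey). Itga4 at -5.44, Mcam at -3.63, Bcam at -3.32 and Itgb7 at 2.50 are drawn in red because their groups do not overlap, and the leave-one-out range of Alcam, Vcam1 and Itga9 crosses 0.

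Genes whose profile over the 6 libraries was most like 3 of the 10 were listed by the root mean square difference of log2(CPM + 0.5) around each gene's mean, among genes with a mean of at least 1 CPM. On this scale, where the added 0.5 CPM narrows genes at low levels such as Vcam1 and Itgb7, the 3 of the 10 with the widest range were Itga4, Mcam and Itga9. For Itga4 the nearest were Dcdc2 (0.30), Gria2 (0.32), a gene without symbol (0.45), Adarb1 (0.55) and Actg2 (0.62), a smooth muscle actin gene. Gria2, a glutamate receptor subunit, had 1.28, 4.14 and 18.9 CPM in the young cultures and 0.0804, 0.346 and 0.373 CPM in the old ones, which repeats the high young replicate 3. For Mcam the nearest were Lce1m (0.24), Foxs1 (0.32), a gene without symbol (0.34), Ankrd1 (0.38) and Gucy1a2 (0.39), a soluble guanylate cyclase subunit. Foxs1, a forkhead transcription factor, had 19.9, 42.6 and 47.7 CPM in the young cultures and 4.86, 2.71 and 1.75 CPM in the old ones. For Itga9 they were Lpar4 (0.23), Col18a1 (0.26), Snai2 (0.27), Slc38a4 (0.27) and 6330403K07Rikl (0.28), each of which, as Itga9, was highest in young replicate 3. Snai2, a zinc finger repressor, had 8.51, 11.2 and 44.2 CPM in the young cultures and 19.6, 16.2 and 28.7 CPM in the old ones.

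The related genes lay on both sides of 0. For the counts in this and the following lists, the background over all genes was 5.56% called by DESeq2. At an unadjusted p under 0.05 with edgeR it was 22.6% (11.2% higher and 11.5% lower). Of 42 other Ig-family adhesion genes 27 were measured, 14 higher and 13 lower in old VSM cells (median log2 fold change 0.04). edgeR called 0 of them (5 higher and 2 lower at an unadjusted p under 0.05), limma-voom 0 and DESeq2 1. The gene called by DESeq2 was Cdon, a surface co-receptor of hedgehog and cadherin signaling, with 49.4, 37.9 and 36.8 CPM in the young cultures and 99.1, 119 and 94.5 CPM in the old ones. Its log2 fold change was 1.33 ± 0.16 (SE, edgeR adjusted p = 0.0531). Boc, its close relative, had a log2 fold change of 0.80 (edgeR adjusted p = 0.210) with overlapping groups. Nfasc and Lsamp had log2 fold changes of 1.13 and -0.85 (edgeR adjusted p = 0.421 and 0.678), each with overlapping groups, and single libraries set both values. Nfasc was at -0.13 without old replicate 2, and Lsamp ran from -2.69 without old replicate 3 to 0.43 without young replicate 3.

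Of 24 partners and ligands of Itga4, Itga9 and Itgb7, 19 were measured, 6 higher and 13 lower in old VSM cells (median log2 fold change -0.33). edgeR called 0 (0 higher and 6 lower at an unadjusted p under 0.05), limma-voom 0 and DESeq2 2, both lower. The matrix ligand of Itga9, Tnc (tenascin C), had 9580, 8824 and 7720 CPM in the young cultures and 2801, 1521 and 1222 CPM in the old ones, with a log2 fold change of -2.24 ± 0.35 (SE, edgeR adjusted p = 0.0574). Each old library of Tnc was below each young library, whereas Itga9 itself overlapped. Tgm2, a transglutaminase of the cell surface and matrix, had a log2 fold change of -1.83 ± 0.43 (SE, edgeR adjusted p = 0.102), also called by DESeq2. Spp1 (osteopontin), a ligand of the Itga4 and Itga9 subunits, had a log2 fold change of -0.97 ± 0.22 (SE, edgeR adjusted p = 0.0948).

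Of 27 ligands and cytoplasmic partners of the Ig-family genes, 21 were measured, 11 higher and 10 lower in old VSM cells (median log2 fold change 0.04). edgeR called 0 (2 higher and 4 lower at an unadjusted p under 0.05), limma-voom 0 and DESeq2 3, namely Lama5 and the surface proteoglycan Cspg4, which were lower, and the Ncam1-associated kinase Fyn, which was higher. Fyn had 38.2, 38.8 and 41.1 CPM in the young cultures and 69.0, 89.0 and 87.0 CPM in the old ones, a log2 fold change of 1.05 ± 0.12 (SE, edgeR adjusted p = 0.0531). Cspg4 had a log2 fold change of -1.40 ± 0.30 (SE, edgeR adjusted p = 0.0853). Gfra1, a receptor that can signal through Ncam1, had a log2 fold change of 0.87 (edgeR adjusted p = 0.349) with overlapping groups.

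Of 28 genes of the NF-kB pathway and its cytokine targets, 27 were measured, 9 higher and 18 lower in old VSM cells (median log2 fold change -0.19). edgeR called 0 (2 higher and 2 lower at an unadjusted p under 0.05), limma-voom 0 and DESeq2 2. Ptgs2, the inducible cyclooxygenase, had 51.6, 58.8 and 59.6 CPM in the young cultures and 19.5, 14.8 and 7.85 CPM in the old ones, with a log2 fold change of -2.01 ± 0.32 (SE, edgeR adjusted p = 0.0574). Tnfrsf1b, a TNF receptor, had a log2 fold change of 1.09 ± 0.30 (SE, edgeR adjusted p = 0.127). The chemokine gene Cxcl1 had 263, 127 and 4.21 CPM in the young cultures and 20.1, 135 and 1.32 CPM in the old ones. Il6 had 160, 73.9 and 9.40 CPM in the young cultures and 13.5, 91.1 and 2.57 CPM in the old ones. Both cytokines had, as Vcam1 and Icam1 did, their lowest young level in young replicate 3, but their lowest level of all was in old replicate 3, where Vcam1 was at 1.74 CPM, its highest old value.

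**Figure D5:**
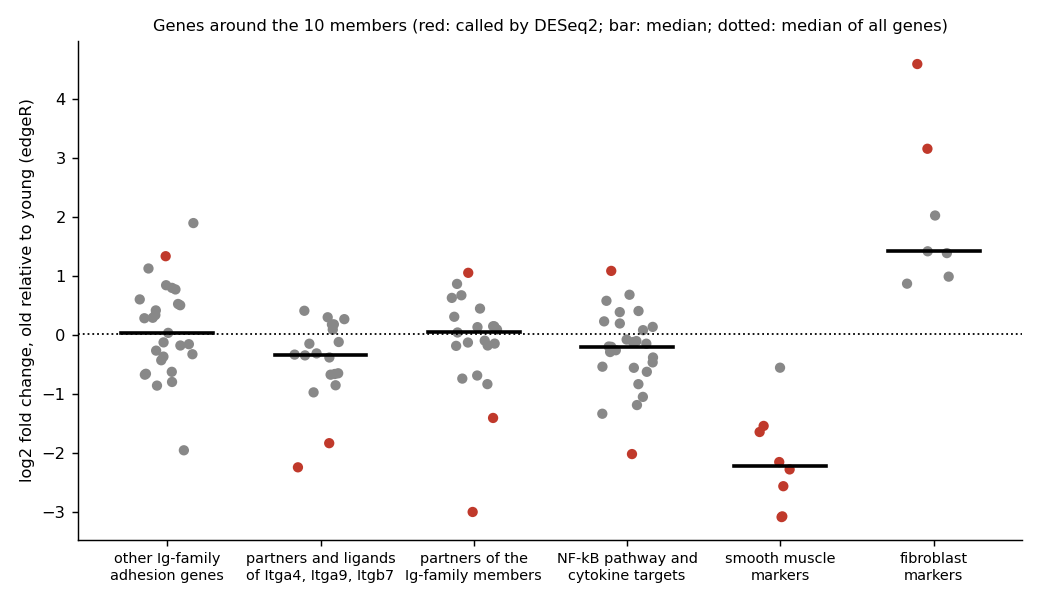
Log2 fold change in old relative to young VSM cells (vertical axis) of each gene in 4 lists around the adhesion genes and in the smooth muscle and fibroblast marker lists, with bars at the medians, a dotted line at the median of all genes (0.02) and genes called by DESeq2 in red. The 4 lists spread on both sides of 0, with medians from -0.33 to 0.04, while the smooth muscle markers (median -2.21) lie below 0 and the fibroblast markers (median 1.42) above.

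Fibroblast markers stood on the other side from the smooth muscle markers. Of 8, 7 were measured and 7 were higher in old, summing to 192 to 502 CPM in the young cultures and 594 to 1479 CPM in the old ones. edgeR called 0 (4 higher and 0 lower at an unadjusted p under 0.05), limma-voom 0 and DESeq2 2, the proteoglycan gene Dcn and Clec3b. Dcn had 19.9, 1.16 and 2.28 CPM in the young cultures and 26.0, 411 and 119 CPM in the old ones. Clec3b had a log2 fold change of 3.15 ± 0.40 (SE, edgeR adjusted p = 0.0531). Of the 8 smooth muscle markers edgeR called 0 (8 lower at an unadjusted p under 0.05), limma-voom 0 and DESeq2 7. The part of these shifts in the values of Mcam, Bcam, Itga4 and Itgb7 was not tested. The ratios of Mcam to Myh11 and Acta2 given above are no such test, since bulk counts cannot tell fewer cells from less RNA per cell.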

How the data were processed

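The authors deposited a table of raw counts for 6 libraries, in whole numbers that had not been normalized. Per the submitters' processing notes and the Methods, reads were trimmed with cutadapt 3.5 and FastQC 0.11.9 in Trim Galore 0.6.7, aligned with STAR 2.7.10b to Rnor 6.0 and counted with featureCounts (Subread 2.0.8) on a RefSeq annotation, although the table carries Ensembl identifiers (1518 of 14475 without symbol). How strand, mates and multi-mapping reads were handled is not given in the sources used here. The table had been filtered, since all its genes reached 10 counts in 3 or more libraries. A gene list was matched by symbol.

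Differences were fitted over all genes with edgeR 4.0.16 in R 4.3.3 (TMM, quasi-likelihood F test, Benjamini-Hochberg adjustment, age as the only term), and called at an adjusted p below 0.05 and a log2 fold change of 1 or more in size, the thresholds of the study. Standard errors (SE) were obtained as the size of the log2 fold change over the root of F. DESeq2 1.42.0 and limma-voom (limma 3.58.1) were alternatives, with RLE size factors, library size only, filters at 1 CPM in 3 libraries and by filterByExpr, the edgeR likelihood ratio test, halved counts, an adjusted p under 0.1, the replicate block and each library left out in turn. DESeq2 with libraries left out was added after seeing the data. The steps were tested on simulated data. The member genes and lists were chosen with earlier results of these data known. Named were all members and, per list, the 4 genes with the largest fold change among those with a mean of at least 1 CPM, unless a gene was called by edgeR, the genes nearest in profile to 3 members, and Acta2 and Myh11. Dcn, Clec3b, Notch3, Acta1 and Chrng fall under this rule, and Cd68 is named as a measured marker. The totals of 44235674 to 59700887 counts, above the reads per sample stated in the Methods, overstate the depth. Depth limits genes at under 10 counts in a library, which 4 of the 10 members had. No count column was left unused.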

Additional observations from a re-analysis of the deposited data

How the results depend on the processing

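Of the 10 genes, 7 kept the direction of their fold change under each of 16 alternatives in which they were tested, and Alcam, Vcam1 and Itga9 did not. Alcam was at -0.015 under limma-voom and -0.019 under the replicate block, and between -0.42 and 0.43 with each library left out. Itga9 was at 0.26 under limma-voom and 0.26 under the replicate block, and between -0.53 and 0.89 with each library left out. Vcam1 lay between -1.29 and 0.066 with each library left out. The cause was not tested. The number of the 10 genes called was 4 with DESeq2 and 4 with the likelihood ratio test, 1 at an adjusted p under 0.1, 1 (Mcam) with at least 1 CPM in 3 libraries, a filter that removed Itga4 and Bcam from the test, and 0 to 1 with each library left out, where Mcam was called without young replicate 1 or old replicate 1. DESeq2 called 2 to 4 with each library left out, with 2 (Mcam and Itga4) without young replicate 2. The other 6 alternatives with all libraries called 0. The share of all genes called was taken for edgeR, DESeq2 and limma-voom with all libraries (0.00691%, 5.56% and 0%). It was not taken for the other settings, so their counts here and below stand without a background. For the other Ig-family adhesion genes the number called was 1 with DESeq2, 1 with the likelihood ratio test, 1 at an adjusted p under 0.1, 1 at 1 CPM in 3 libraries and 0 to 2 with each library left out. For the partners and ligands of the integrin subunits it was 2, 2 and 1 under the first 3 of these settings and 0 to 2 with each library left out. For the ligands and partners of the Ig-family genes it was 3, 3 and 3, then 2 at 1 CPM in 3 libraries and 0 to 4 with each library left out. For the NF-kB list it was 2, 2 and 1, and 0 to 1 with each library left out. In each list the highest of these leave-one-out counts came without old replicate 1.

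Libraries share replicate numbers between ages, and the deviations of same-numbered libraries correlated across 12257 genes at 0.063, 0.32 and 0.31. Differently numbered libraries ran from -0.46 to 0.35. Young replicates 2 and 3 correlated best with their own number and young replicate 1 with old replicate 2. The numbers were not taken as pairs, since the labels give no pairing, and a batch shared by number cannot be told from these values. With the replicate block 0 of the 10 genes were called, as without it, and not every library correlated best with its own number. Genes are not independent replicates. Depth limits Bcam, Vcam1, Itga4 and Itgb7, each with a library under 10 counts.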

Other observations

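Of 10 endothelial markers 6 were measured, at a summed 35.1 to 45.2 CPM in the young cultures and 32.9 to 44.1 CPM in the old ones, with 0 called by edgeR (0 higher and 1 lower at an unadjusted p under 0.05) and 1 by DESeq2. That gene was Erg, an endothelial transcription factor, at 2.46, 6.85 and 3.44 CPM in the young cultures and 0.362, 0.904 and 1.85 CPM in the old ones. The defining endothelial genes Cdh5 and Tie1 were not found by symbol among the genes with counts, from which low-count genes had been removed. Of 7 pericyte markers 4 were measured, at a summed 904 to 1373 CPM in the young cultures and 667 to 1520 CPM in the old ones, carried by Pdgfrb, and DESeq2 called 1, Cspg4. Of 5 mesothelial markers 2 were measured, Msln and Wt1, at a summed 2.97 to 12.5 CPM in the young cultures and 8.28 to 36.1 CPM in the old ones, highest in old replicate 2. The Schwann cell marker S100b had its lowest level, 10.5 CPM, in young replicate 3, the library in which Itgb7 and Vcam1 were also lowest. Acta1, the skeletal muscle actin gene, had 72.1, 140 and 256 CPM in the young cultures and 17.5, 17.6 and 5.97 CPM in the old ones.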
